A study of Mus musculus with 12 samples.

Results

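The genes described here are those whose response to transforming growth factor beta (TGFb) depended on the line of mouse neural stem cells in which it was measured. For each gene the response in the JMJD3 knockdown line (TGFb minus vehicle) was set against the response in the control line (TGFb minus vehicle), and the difference of these responses on the log2 scale was tested. Of 24137 genes tested, 23 passed at an adjusted p under 0.05 (limma, two-sided, Benjamini-Hochberg over all genes), which is 0.0953% of them. The difference was above 0 for 13 genes (0.0539%), so that the value in knockdown cells rose more or fell less, and below 0 for 10 genes (0.0414%).

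All cells were neural stem cells from the cerebral cortex of E12.5 mouse embryos, grown in culture and stably transfected. The knockdown line carried an shRNA against JMJD3, which the labels call sh2 (sh JMJD3 below), and the control line carried an shRNA of random sequence (sh control). Cells of each line received TGFb at 5 ng/ml for 2.5 h or vehicle, and each of the 4 groups had 3 arrays, 12 in all. Each condition thus rests on 1 line with 1 shRNA, so that the line and the knockdown cannot be told apart, and the labels do not say that replicates were separate cultures. What the p-values weigh is therefore the spread among these arrays, part or all of which may be technical.

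TGFb binds a pair of receptor kinases at the cell surface, and the activated receptors phosphorylate Smad proteins that move into the nucleus and turn genes on or off together with partner factors. Many of the first genes it induces encode proteins that dampen the pathway itself, such as inhibitory Smads and Pmepa1, or that act on the extracellular matrix, such as Ccn2. JMJD3, the protein of Kdm6b, is an enzyme that demethylates lysine 27 of histone H3 (H3K27), and that methyl mark is the one that Polycomb repressive complex 2 writes at silent genes.

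Values are log2 signals relative to the 75th percentile of the same array, which was between 3169 and 4459 intensity units, so a value of 0 lies at that percentile. Replicates of a group correlated across genes with r between 0.994 and 0.998, and no gene spot was saturated (0 on each array). The neural stem cell genes Vim, Nes and Fabp7 were among the bright genes on all 12 arrays, with levels between 6.03 and 6.43, between 4.92 and 5.41, and between 6.58 and 6.93. Other genes of their list were lower, with Sox2 between 1.78 and 2.73 and Pax6 between -1.73 and -1.27. Their list had 18 of 18 genes measured, and its linear signals, each relative to the 75th percentile, summed to 278 to 299 in sh JMJD3 with TGFb, 257 to 284 in sh JMJD3 with vehicle, 253 to 276 in sh control with TGFb and 273 to 292 in sh control with vehicle. Of 10 microglial and macrophage genes 7 were measured, with sums of 3.43 to 4.03, 3.48 to 3.83, 3.16 to 3.51 and 3.31 to 4.60 in the same order of groups. Of 10 endothelial and pericyte genes 8 were measured, with sums of 1.06 to 1.17, 0.957 to 1.05, 0.907 to 1.04 and 0.864 to 1.02. Of 10 fibroblast and meningeal genes 6 were measured, with sums of 5.21 to 5.66, 5.90 to 6.79, 4.33 to 5.09 and 4.99 to 5.46. Sums for the 10 astrocyte genes were 149 to 158, 150 to 156, 128 to 142 and 131 to 150. Those for the 10 oligodendrocyte lineage genes were 37.7 to 41.3, 43.5 to 45.7, 39.5 to 40.3 and 48.7 to 52.2. The part of such signal in the results was not tested. Probes for Aif1, Tyrobp and C1qa of the microglial list and for Cdh5 and Kcnj8 of the endothelial list were not well above background on all 3 arrays of any group. The 4 slides held unequal mixtures of the groups. Slide 1 held only vehicle arrays, and slide 4 only TGFb arrays, namely sh JMJD3 replicates 2 and 3 and sh control replicate 3. Slide and treatment thus overlap in part. Arrays of different groups on 1 slide deviated together from their group means (12 of 12 pairs, correlations from 0.18 to 0.58). With the slide as a fixed block in the fit, 22 of the 23 genes passed again. Slide 3 alone held 1 array of each group, and within it the difference had the same sign for 23 of 23 genes, with sizes from 0.44 to 1.82. These arrays are among the 12 by which the genes were chosen, so the shared sign is no independent support.

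The knockdown target was lower in sh JMJD3 cells under both treatments. Kdm6b measured -2.0, -2.12 and -2.01 in sh JMJD3 cells with TGFb, against -0.67, -0.69 and -0.59 in sh control cells with TGFb. With vehicle it measured -1.95, -1.90 and -1.97 in sh JMJD3 cells, against -0.85, -0.73 and -0.74 in sh control cells. These levels do not overlap between the lines, and they correspond to a 2.62-fold lower signal with TGFb and a 2.25-fold lower signal with vehicle (adjusted p = 3.09e-08 and 1.09e-07, limma). Its probe lies at chr11:69212177-69212236 in build mm9. Over all genes 6971 (28.9%) passed for sh JMJD3 against sh control with TGFb and 6788 (28.1%) with vehicle. TGFb itself left Kdm6b near its vehicle level, and the difference of responses was -0.22 ± 0.08 (SE, n = 3 arrays a group, adjusted p = 0.81).

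The 23 genes fell into a few patterns of response, seen in the plot of the responses in both lines. For 7 genes the signal rose with TGFb in both lines and rose more in sh JMJD3, and for 4 genes it fell in both and fell less in sh JMJD3. For 1 gene, Insm1, the fall passed the test in sh control and not in sh JMJD3, and for 1 gene, Gper1, the responses had opposite directions. Among the genes with a difference below 0, 8 rose in both lines and rose less in sh JMJD3, and for 2 genes, Dclk3 and Efnb2, the rise passed the test in sh control and not in sh JMJD3. Each response is itself a comparison of the same fit, in which 2251 genes (9.33%) passed for TGFb in sh JMJD3 and 2473 (10.2%) for TGFb in sh control. Each of the 23 genes was well above background on all 12 arrays.

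**Figure D1:**
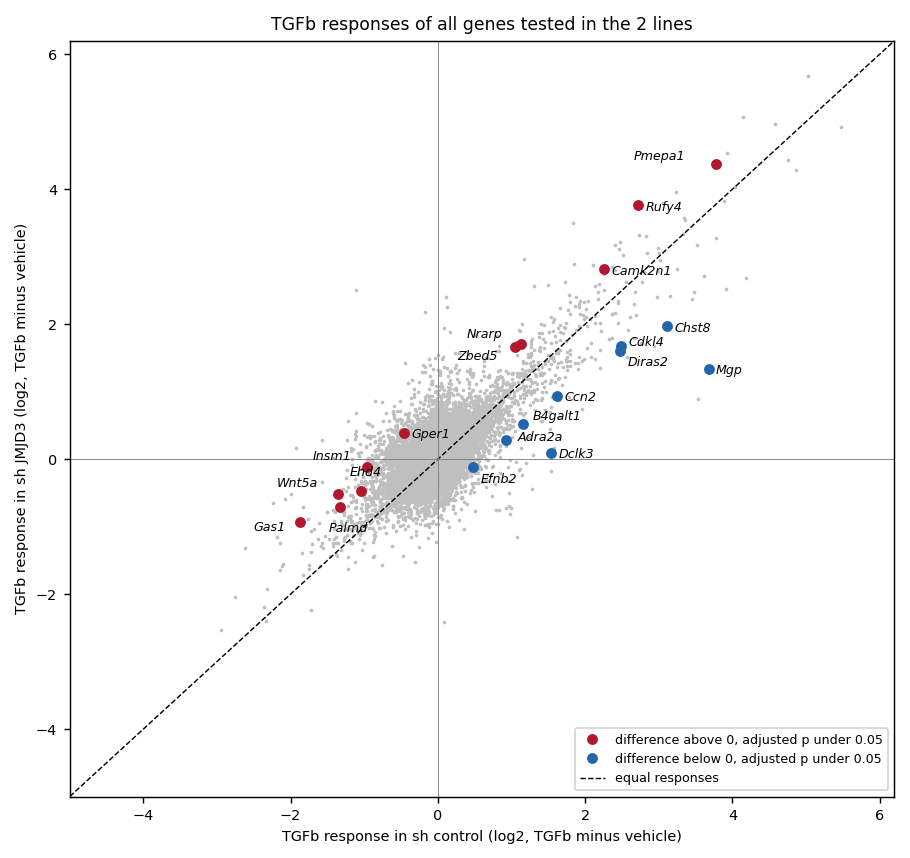
Each point is 1 of the 24137 genes tested, with its TGFb response in sh JMJD3 cells (log2, vertical axis) against its response in sh control cells (log2, horizontal axis); the dashed line marks equal responses. Red points are the named genes with a difference above 0 and blue points those with a difference below 0 that passed at an adjusted p under 0.05. Pmepa1, at 4.38 in sh JMJD3 and 3.78 in sh control, lies above the line, and Mgp, at 1.34 in sh JMJD3 and 3.68 in sh control, lies farthest below it among the marked genes.

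Mgp encodes matrix Gla protein, a secreted inhibitor of calcification in cartilage and vessels, and had the largest difference of the 23 genes. In sh JMJD3 cells it measured -3.15, -3.30 and -3.23 with TGFb, against -4.43, -4.68 and -4.59 with vehicle. In sh control cells it measured -4.03, -4.14 and -4.15 with TGFb, against -7.99, -7.97 and -7.39 with vehicle. The rise was 2.53-fold in sh JMJD3 and 12.8-fold in sh control, and Mgp was above its sh control level under both treatments, by 0.88 on the log2 scale with TGFb and by 3.22 with vehicle. The difference of responses was -2.34 ± 0.21 (SE, adjusted p = 0.00297, 95% interval -2.81 to -1.88). It did not pass with normexp background correction (-0.49, adjusted p = 0.389) or in the authors' processed values (-0.58, adjusted p = 0.12). Its level in sh control cells with vehicle was the lowest of the 20 named genes that passed.

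Dclk3, a kinase of the doublecortin-like family, responded in sh control cells and showed no rise past the threshold in sh JMJD3 cells. Its signal was -3.75, -3.67 and -3.61 with TGFb and -3.79, -3.70 and -3.82 with vehicle in sh JMJD3 cells. In the control line it was -2.25, -2.14 and -2.23 with TGFb and -3.94, -3.61 and -3.70 with vehicle. Thus 3 of the groups share a level and the sh control arrays with TGFb stand alone above them. The response was 0.09 ± 0.09 in sh JMJD3 (adjusted p = 0.62) and 1.54 ± 0.09 in sh control, a 2.91-fold rise. The difference was -1.45 ± 0.13 (adjusted p = 0.00297), and -1.49 within slide 3. The probe lies at chr9:111391481-111391540 (mm9).

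Chst8, a sulfotransferase that adds sulfate to N-acetylgalactosamine, rose in both lines and less in sh JMJD3. With TGFb it measured -0.64, -0.83 and -0.98 in sh JMJD3 cells, against 0.03, 0.03 and 0.00 in sh control cells. With vehicle the values were -2.75, -2.70 and -2.90 in sh JMJD3 cells, against -3.15, -3.02 and -3.08 in sh control cells. The lines changed order: sh JMJD3 was the lower one with TGFb and the higher one with vehicle. The rises were 3.91-fold in sh JMJD3 and 8.61-fold in sh control, with a difference of -1.14 ± 0.12 (adjusted p = 0.00675). Chst8 and Dclk3 passed in each of the 27 alternative settings that were run.

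Ccn2 encodes connective tissue growth factor, a matricellular protein and a standard early target of TGFb. Its signal was 2.59, 2.61 and 2.64 with TGFb in sh JMJD3 cells, against 3.10, 3.12 and 3.25 with TGFb in sh control cells. With vehicle it was 1.70, 1.63 and 1.69 in sh JMJD3 cells, against 1.38, 1.69 and 1.53 in sh control cells. The arrays with vehicle overlap between the lines, and those with TGFb are all lower in sh JMJD3. The rise was 1.92-fold in sh JMJD3 and 3.08-fold in sh control (difference -0.68 ± 0.10, adjusted p = 0.0351). Ccn2 passed in 2 of the 12 fits that left out 1 array each, with differences from -0.76 to -0.61.

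Efnb2, a transmembrane ligand of Eph receptors, measured 0.50, 0.59 and 0.56 with TGFb and 0.65, 0.74 and 0.59 with vehicle in sh JMJD3 cells. In sh control cells it measured 0.28, 0.40 and 0.41 with TGFb and -0.12 with vehicle on each of the 3 arrays. The sh control cells with vehicle were thus the low group, below the other 3. The response was -0.11 in sh JMJD3 (adjusted p = 0.276) and 0.48 in sh control, with a difference of -0.59 ± 0.07 (adjusted p = 0.0124). Its other kept probe gave -0.76 ± 0.19, which did not pass over all probes (adjusted p = 0.379). Adra2a, an adrenergic receptor, was between -2.02 and -1.88 with TGFb and between -2.34 and -2.20 with vehicle in sh JMJD3 cells, against a range of -3.06 to -2.91 with TGFb and of -3.92 to -3.89 with vehicle in sh control cells. It was higher in sh JMJD3 under both treatments, by 1.03 with TGFb and by 1.66 with vehicle (difference -0.63 ± 0.10, adjusted p = 0.0429), and it passed in 0 of the 12 fits that left out 1 array, with differences from -0.68 to -0.60.

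A further 3 genes with a difference below 0 also rose in both lines. B4galt1, a galactosyltransferase, rose by 0.52 in sh JMJD3 and by 1.16 in sh control (difference -0.64 ± 0.09, adjusted p = 0.0252). Its other kept probe, of lower signal, gave -0.11 ± 0.30 (adjusted p = 0.98, over all probes), and B4galt1 did not pass with the mean of its kept probes (-0.37, adjusted p = 0.976). Cdkl4, a cyclin-dependent kinase-like kinase, rose by 1.67 in sh JMJD3 and by 2.49 in sh control (difference -0.82 ± 0.11, adjusted p = 0.0269). Diras2, a small GTPase of the Ras family, rose by 1.60 in sh JMJD3 and by 2.48 in sh control (difference -0.88 ± 0.14, adjusted p = 0.0495). In the fits that left out 1 array each, Diras2 passed in 1 of 12, with differences from -0.98 to -0.82, and B4galt1 and Cdkl4 passed in 3 each. In B4galt1 the level in sh JMJD3 minus that in sh control was -0.09 with TGFb and 0.55 with vehicle. The same quantity for Diras2 was 0.03 with TGFb and 0.90 with vehicle, so that in both genes the lines were closer together with TGFb.

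**Figure D2:**
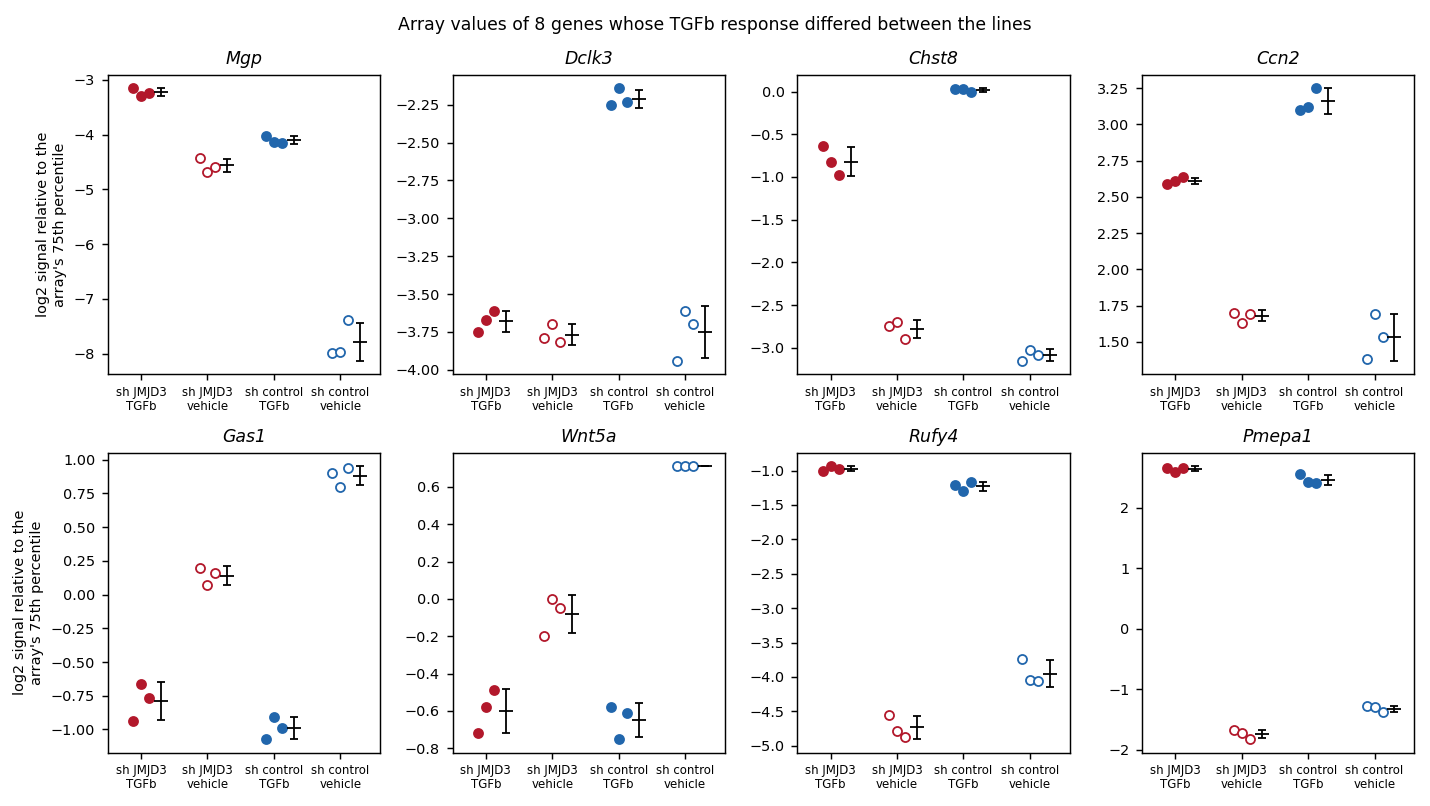
Log2 signals relative to the 75th percentile of the array for 8 genes that passed the test, in panels with their own vertical scales. Points are single arrays, filled with TGFb and open with vehicle, red for sh JMJD3 and blue for sh control; the bar beside each group is its mean ± SD (n = 3). For Dclk3 the sh control arrays with TGFb, at -2.25 to -2.14, stand above the other 9 arrays, at -3.94 to -3.61.

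Pmepa1 encodes a membrane protein that binds receptor-regulated Smads and limits TGFb signalling. In sh JMJD3 cells it measured 2.66, 2.59 and 2.65 with TGFb and -1.68, -1.73 and -1.82 with vehicle. The control line had 2.55, 2.42 and 2.40 with TGFb and -1.28, -1.30 and -1.38 with vehicle. The lines changed order here too, sh JMJD3 being the higher one with TGFb and the lower one with vehicle. Pmepa1 rose 20.8-fold in sh JMJD3 and 13.7-fold in sh control (difference 0.61 ± 0.08, adjusted p = 0.0124), and its other kept probe gave 0.66 (adjusted p = 0.013, over all probes).

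The gene of the 23 that is known only by a clone-type name, AW742560, was outside the rule for named genes and is named after its values were seen, because its probe lies 48.5 kb from that of Pmepa1 on chromosome 2 (chr2:173098519-173098578 and chr2:173049966-173050025, mm9). It measured 1.32, 1.34 and 1.27 with TGFb and -2.59, -2.41 and -2.47 with vehicle in sh JMJD3 cells. The control line had 1.40, 1.53 and 1.48 with TGFb and -1.60, -1.61 and -1.55 with vehicle. It rose in both lines, 13.9-fold in sh JMJD3 and 8.33-fold in sh control (difference 0.74 ± 0.08, adjusted p = 0.00675). Whether both probes read 1 transcript was not tested.

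Rufy4, a RUN and FYVE domain protein linked to autophagy, had the largest difference above 0. It measured -1.0, -0.94 and -0.98 with TGFb in sh JMJD3 cells, against -1.21, -1.30 and -1.17 with TGFb in sh control cells. With vehicle it measured -4.55, -4.78 and -4.87 in sh JMJD3 cells, against -3.74, -4.05 and -4.06 in sh control cells. The sh JMJD3 arrays are higher with TGFb and lower with vehicle, without overlap. In limma the lines differed past the threshold with vehicle (-0.78, adjusted p = 0.000177) and not with TGFb (0.26, adjusted p = 0.0867). The rise was 13.6-fold in sh JMJD3 and 6.61-fold in sh control (difference 1.04 ± 0.15, adjusted p = 0.0269), and the gene passed in 3 of the 12 fits that left out 1 array, with differences from 0.93 to 1.13.

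Nrarp, a feedback inhibitor of Notch signalling, measured -0.78, -0.76 and -0.76 with TGFb in sh JMJD3 cells, against -1.37, -1.29 and -1.36 with TGFb in sh control cells. With vehicle the lines overlapped, at -2.46, -2.43 and -2.54 in sh JMJD3 cells and -2.41, -2.61 and -2.40 in sh control cells. It rose 3.27-fold in sh JMJD3 and 2.19-fold in sh control (difference 0.58 ± 0.09, adjusted p = 0.049). With the slide as a block the difference was 0.57 and its adjusted p 0.0513, and Nrarp passed in 1 of the 12 fits that left out 1 array, with differences from 0.54 to 0.64. Camk2n1, an inhibitor of calcium/calmodulin-dependent kinase II, rose by 2.81 in sh JMJD3 and by 2.26 in sh control (difference 0.55 ± 0.07, adjusted p = 0.0124), and Zbed5, a BED-type zinc finger protein, rose by 1.66 in sh JMJD3 and by 1.05 in sh control (difference 0.61 ± 0.09, adjusted p = 0.0295). The level in sh JMJD3 minus that in sh control was -0.45 with TGFb and -1.0 with vehicle for Camk2n1, and 0.01 with TGFb and -0.60 with vehicle for Zbed5. Zbed5 passed in 0 of the 12 fits that left out 1 array, with differences from 0.58 to 0.63, and Camk2n1 passed in 8. Camk2n1 did not pass with normexp background correction (0.45, adjusted p = 0.195) or in the authors' processed values (0.43, adjusted p = 0.282).

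In 6 genes the difference above 0 came with a fall in sh control cells. Gas1 encodes a membrane-anchored co-receptor for hedgehog ligands, first known from growth-arrested cells. In sh JMJD3 cells Gas1 measured -0.94, -0.66 and -0.77 with TGFb and 0.20, 0.07 and 0.16 with vehicle. The values in sh control cells were -1.07, -0.91 and -0.99 with TGFb and 0.90, 0.80 and 0.94 with vehicle. The lines overlap with TGFb, and with vehicle sh JMJD3 is lower without overlap. Gas1 fell 1.91-fold in sh JMJD3 and 3.66-fold in sh control (difference 0.94 ± 0.11, adjusted p = 0.00918). Its other probes gave differences of 1.06 and 0.86, neither of which passed over all probes (adjusted p = 0.0713 and 0.16).

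Wnt5a, a secreted ligand of noncanonical Wnt signalling, had a like layout. It measured -0.72, -0.58 and -0.49 with TGFb in sh JMJD3 cells, against -0.58, -0.75 and -0.61 with TGFb in sh control cells. With vehicle it measured -0.20, 0.00 and -0.05 in sh JMJD3 cells, against 0.71 on each of the 3 arrays of sh control cells. As with Gas1, the levels overlap with TGFb and are lower in sh JMJD3 with vehicle. Wnt5a fell 1.43-fold in sh JMJD3 and 2.55-fold in sh control (difference 0.84 ± 0.10, adjusted p = 0.0124).

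Palmd, a cytosolic protein of the paralemmin family, and Ehd4, a protein of endocytic recycling, were instead higher in sh JMJD3 under both treatments. Palmd measured between 1.89 and 2.04 with TGFb in sh JMJD3 cells, against 0.22 to 0.31 in sh control cells, and between 2.65 and 2.72 with vehicle in sh JMJD3 cells, against 1.55 to 1.63 in sh control cells. It fell 1.63-fold in sh JMJD3 and 2.51-fold in sh control (difference 0.62 ± 0.07, adjusted p = 0.00831). Ehd4 fell 1.39-fold in sh JMJD3 and 2.06-fold in sh control (difference 0.57 ± 0.07, adjusted p = 0.0124), and its other probe gave 0.59 (adjusted p = 0.0158).

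Insm1, a zinc finger transcription factor of newly forming neurons and endocrine cells, fell past the threshold in sh control cells, where its level was also higher under both treatments. In sh JMJD3 cells it measured -1.28, -1.08 and -1.08 with TGFb and -1.02, -1.0 and -1.07 with vehicle. In sh control cells it measured -0.39, -0.13 and -0.25 with TGFb and 0.69, 0.60 and 0.82 with vehicle. Its response was -0.12 in sh JMJD3 (adjusted p = 0.48) and -0.96 in sh control, with a difference of 0.84 ± 0.11 (adjusted p = 0.0252), and it passed in 3 of the 12 fits that left out 1 array. Gper1, a G protein-coupled receptor for estrogen, was the one gene whose responses passed in opposite directions. It measured -0.51, -0.69 and -0.55 with TGFb and -1.04, -0.94 and -0.94 with vehicle in sh JMJD3 cells, against -1.04, -1.15 and -1.38 with TGFb and -0.83, -0.75 and -0.62 with vehicle in sh control cells. It rose by 0.39 in sh JMJD3 and fell by 0.46 in sh control (difference 0.85 ± 0.12, adjusted p = 0.0356), and it passed in 1 of the 12 fits that left out 1 array, with differences from 0.75 to 0.92.

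**Figure D3:**
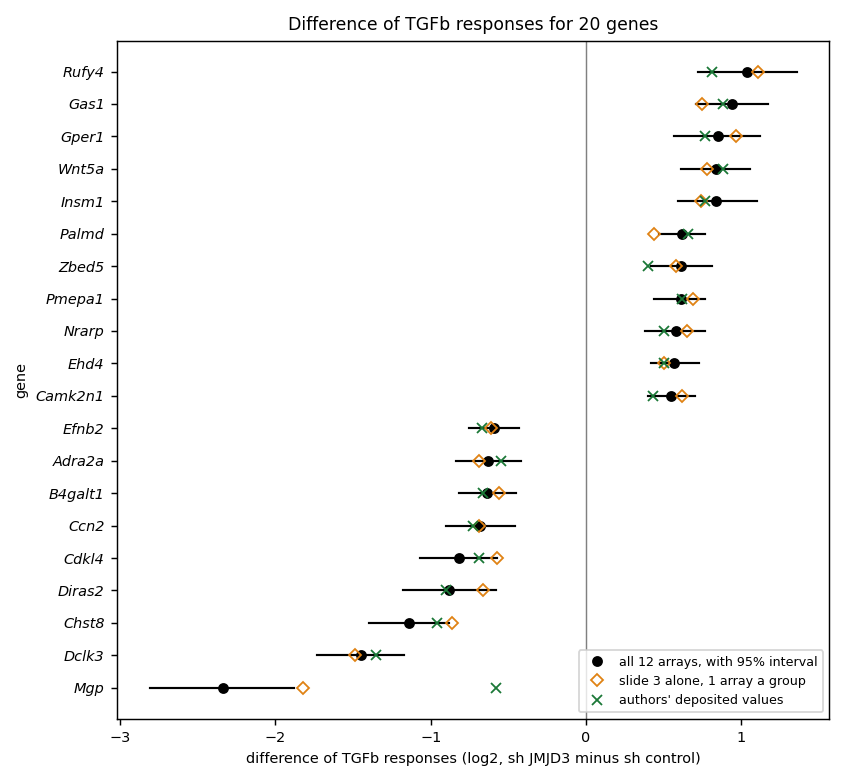
Difference of TGFb responses (log2, sh JMJD3 minus sh control) for the 20 named genes that passed the test. Black points and lines are the values over all 12 arrays with 95% intervals, open diamonds the values within slide 3 (1 array a group), and crosses the values from the authors' processed table. All markers of a gene lie on the same side of 0, and for Mgp the authors' table gave -0.58 against -2.34 from the processed signals. The slide 3 arrays are among the 12 by which the genes were chosen.

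The count of genes that passed moved with some of the settings. With each array scaled to its median, 5 of the 23 genes passed. Of these, 1 had a difference above 0 (Rufy4) and 4 below 0 (Mgp, Dclk3 and Chst8 among them). In the authors' processed values, whose background correction is not given in the sources used here, 15 genes passed, 12 of them among the 23. Of these 15, 6 were above 0 and 9 below 0, against 13 above 0 and 10 below 0 here. With normexp background correction 18 genes passed, 13 of them among the 23. Of the 20 named genes 9 did not pass with normexp correction: Mgp, Palmd, Camk2n1, B4galt1, Zbed5, Gper1, Adra2a, Nrarp and Diras2. In the authors' processed values these and Ehd4 did not pass. Quantile normalization gave 19 genes, 11 above 0 and 8 below 0. At an unadjusted p under 0.05 there were 1195 genes, or 4.95% of those tested. The median difference over all genes was 0.01, and the median SE of a difference was 0.14, against 0.10 for the response in 1 line.

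For most genes with large responses, as for most genes tested, the arrays bounded the difference between the lines to less than 2-fold. The mean response of both lines reached at least 1 on the log2 scale, with an adjusted p under 0.05, for 426 genes, of which 328 rose and 98 fell. This choice uses the sum of the responses and not their difference. Of these 426 genes, 15 (3.52%) passed the test of the difference, 9 with a difference above 0 and 6 below 0, against 0.0953% of all genes tested. For 302 (70.9%) the 95% interval of the difference lay within 1 log2 on either side of 0, against 79.7% of all genes tested. The median interval reached 0.38 to either side of its centre, against 0.32 over all genes tested. For 3 genes the interval lay wholly beyond 1 log2, among them Mgp, which passed, and Fam169b, which is named after its values were seen and did not pass (-2.65 ± 0.61, adjusted p = 0.25). The Fam169b probe was well above background on 3 arrays of sh control with TGFb and on 0 arrays of each other group. It was thus kept through the group where it was high. With normexp background correction its difference was -0.25 (adjusted p = 0.993). When p-values were adjusted over the 3788 genes that passed the test of the mean response, instead of all genes, 109 genes (2.88%) passed, 61 above 0 and 48 below 0, and 22 of the 23 genes were among them. Both tests use the same variance estimate of a gene, so this choice is not independent of the p-values of the difference. The median interval reached 0.24 to either side for these 3788 genes, against 0.35 for genes that did not pass the mean test.

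Several other strong responders besides Pmepa1 had differences that did not pass. Col2a1, the main collagen of cartilage, rose 30.4-fold in sh JMJD3 and 44.3-fold in sh control (difference -0.54 ± 0.15, adjusted p = 0.44). Adcy7, an adenylyl cyclase, rose 33.5-fold in sh JMJD3 and 17.7-fold in sh control (difference 0.92 ± 0.21, adjusted p = 0.25). Scx, a transcription factor of tendon, had responses of 4.43 in sh JMJD3 and 4.75 in sh control (difference -0.32 ± 0.22, adjusted p = 0.972). Ahr, the aryl hydrocarbon receptor, fell 4.69-fold in sh JMJD3 and 3.31-fold in sh control (difference -0.51 ± 0.12, adjusted p = 0.255). With normexp background correction the differences were -0.45 for Col2a1, 0.41 for Adcy7, -0.31 for Scx and -0.47 for Ahr. In the authors' processed values they were -0.52, 0.30, -0.41 and -0.50 in the same order. Missing the threshold does not show that the lines responded alike.

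Genes that act in the TGFb pathway were read from lists of known members. The list of feedback regulators and early targets had 22 genes tested, of which 2 passed with a difference above 0 (Pmepa1 among them) and 1 below 0 (Ccn2). The share that passed was 0.0953% over all genes and 3.52% over the 426 genes with a large mean response. The median difference of the list was 0.24, against 0.01 over all genes tested. In this list 14 genes rose in sh JMJD3 and 13 in sh control, and 3 fell in each line. Over all genes tested 4.83% rose and 4.50% fell in sh JMJD3, and 5.35% rose and 4.89% fell in sh control. Skil, which encodes a repressor of Smads, had a response of 2.43 in sh JMJD3 and 1.78 in sh control (difference 0.65 ± 0.15, adjusted p = 0.247). The inhibitory Smads had values on the same side, 4.53 in sh JMJD3 and 3.92 in sh control for Smad6 (difference 0.61 ± 0.15, adjusted p = 0.346) and 3.31 in sh JMJD3 and 2.82 in sh control for Smad7 (difference 0.49 ± 0.25, adjusted p = 0.972). With normexp background correction the difference was 0.27 for Smad6 and 0.66 for Skil, and in the authors' processed values it was 0.21 for Smad6 and 0.67 for Skil. For Nedd9 and Ldlrad4 the differences were -0.16 and -0.20.

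Bone morphogenetic proteins (BMPs) are a related family of ligands whose Smad branch TGFb can also reach. Of their targets 0 of 12 passed, against 0.0953% of all genes tested, with a median difference of -0.14. In sh JMJD3 cells 7 of the 12 rose, against 4.83% of all genes, and in sh control cells 9 rose, against 5.35%. Id3, an inhibitor of basic helix-loop-helix factors, had a response of -0.19 in sh JMJD3 and 0.46 in sh control (difference -0.65 ± 0.12, adjusted p = 0.0905). Atoh8, a basic helix-loop-helix factor, had a response of 0.57 in sh JMJD3 and 1.42 in sh control (difference -0.86 ± 0.16, adjusted p = 0.124). Id2 had nearly the same response in both lines, 2.12 in sh JMJD3 and 2.13 in sh control, with an interval of the difference from -0.18 to 0.16.

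The receptors and Smads of the superfamily had differences of small size, with a median of 0.02. Of 17 genes 0 passed, against 0.0953% of all genes tested. For all 17 the 95% interval lay within 1 log2 on either side of 0, against 79.7% of all genes tested. The response of Tgfbr2, the TGFb receptor that binds ligand, was -0.53 in sh JMJD3 and -0.85 in sh control (difference 0.32 ± 0.09, adjusted p = 0.494). The differences for the signal-transducing Smads were -0.03 for Smad3, 0.04 for Smad2 and 0.02 for Smad4. Among 18 ligands and antagonists 0 passed. Fst, follistatin, which binds activins, was nearest to the threshold, with a response of 2.14 in sh JMJD3 and 2.69 in sh control (difference -0.55 ± 0.09, adjusted p = 0.0609). Of the 13 genes for H3K27 demethylases and Polycomb repressive complex 2, 0 passed, all 13 had intervals within 1 log2, and the largest difference was that of Kdm6b itself. With 0.0953% of all genes passing, a count of 0 in lists this short is no result about them.

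**Figure D4:**
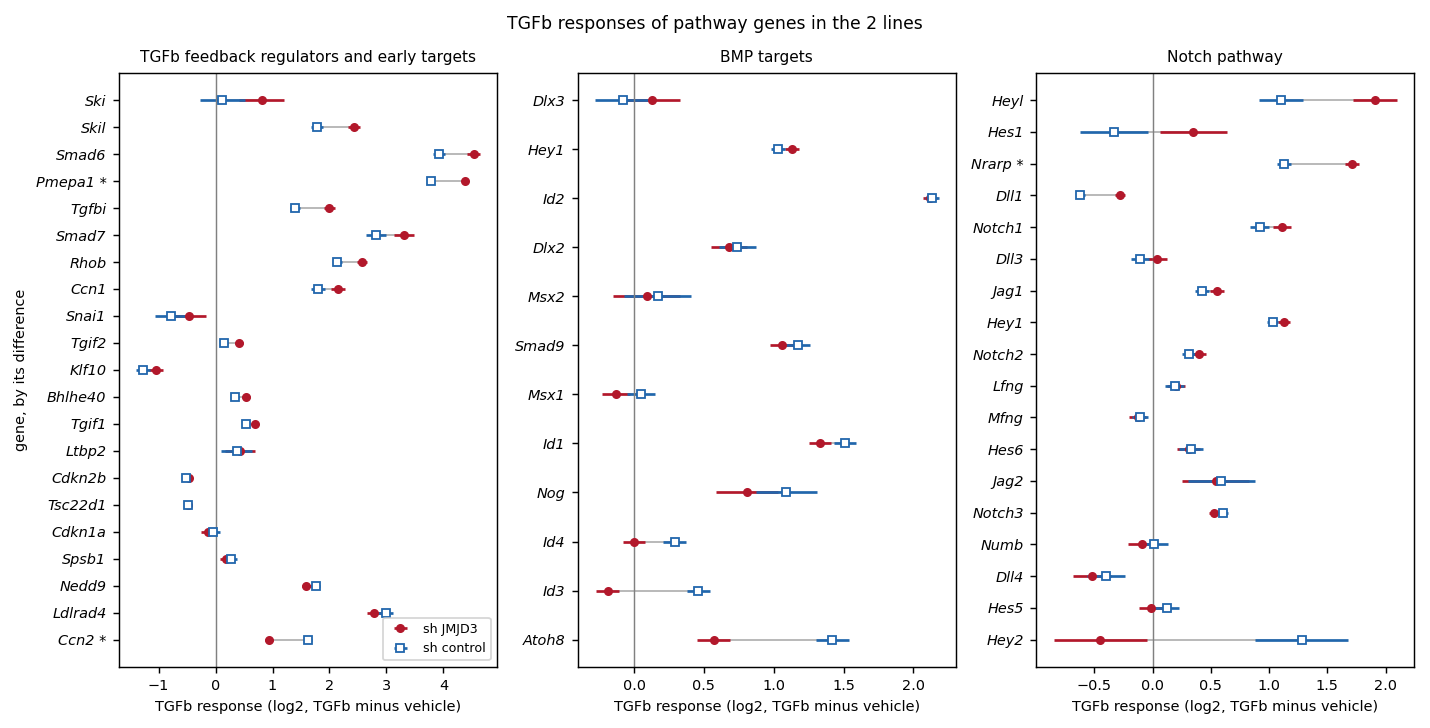
TGFb responses (log2, horizontal axis) of genes of 3 lists in sh JMJD3 cells (filled red circles) and sh control cells (open blue squares), with bars of 1 SE, sorted by the difference from the highest at the top. An asterisk marks genes whose difference passed at an adjusted p under 0.05: Pmepa1 and Ccn2 among the TGFb targets, none of the 12 BMP targets, and Nrarp in the Notch pathway.

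In the Notch pathway 1 of 18 genes passed, Nrarp, against 0.0953% of all genes tested, and the median difference was 0.05. Dll1, a Notch ligand, fell by 0.28 in sh JMJD3 and by 0.62 in sh control (difference 0.34 ± 0.06, adjusted p = 0.0744). Heyl, a Notch target, rose by 1.91 in sh JMJD3 and by 1.10 in sh control (difference 0.82 ± 0.28, adjusted p = 0.783). Hey2 gave -0.45 in sh JMJD3 and 1.28 in sh control with a wide error (difference -1.73 ± 0.56, adjusted p = 0.704), and in sh control cells with vehicle its probe was well above background on 0 of 3 arrays.

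Of 19 neurogenic factors and neuronal markers tested, Insm1 passed, against 0.0953% of all genes tested, and the median difference was 0.03. Neurog2, a proneural factor, had a response of 0.92 in sh JMJD3 and 1.59 in sh control (difference -0.67 ± 0.14, adjusted p = 0.159), and Eomes, a factor of intermediate progenitors, had 0.41 in sh JMJD3 and 1.05 in sh control (difference -0.65 ± 0.14, adjusted p = 0.204). These lie on the opposite side of 0 from Insm1. Among 26 genes of the extracellular matrix and 17 genes of cartilage and tendon 1 gene passed, Mgp, which is in both lists, and the medians were -0.13 and -0.12. Among 19 sulfotransferases and sialyltransferases Chst8 passed, and the median was 0.01. The share over all genes, 0.0953%, applies to these 3 lists too. The lists of immediate early, FGF-ERK feedback, cytokine, interferon, cell cycle and amino acid stress genes had 0 genes that passed. So did the markers of neural stem cells, astrocytes, oligodendrocyte lineage, fibroblasts, endothelium and microglia. At that share over all genes, a count of 0 in lists this short is no result about them. Among the immediate early genes, the transcription factor Egr4 had a response of -1.16 in sh JMJD3 and -2.18 in sh control (difference 1.03 ± 0.20, adjusted p = 0.148).

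Just past the threshold lay 26 genes with a difference above 0 and 28 below 0, at adjusted p from 0.05 to 0.20. The nearest was Pou3f1, a POU-domain factor of neural precursors, with a response of -1.25 in sh JMJD3 and -2.15 in sh control (difference 0.91 ± 0.14, adjusted p = 0.0505). Hic1, a transcriptional repressor, had -0.79 in sh JMJD3 and -1.40 in sh control (difference 0.61 ± 0.10, adjusted p = 0.0691). Amz1, a metallopeptidase, had 2.62 in sh JMJD3 and 1.73 in sh control (difference 0.88 ± 0.15, adjusted p = 0.0698). On the other side, Cav1, which forms caveolae, had -1.0 in sh JMJD3 and 0.15 in sh control (difference -1.16 ± 0.20, adjusted p = 0.0698), and Cited2, a transcriptional coregulator that binds CBP and p300, had -1.15 in sh JMJD3 and -0.37 in sh control (difference -0.77 ± 0.13, adjusted p = 0.0691). Cd40, a receptor of the tumour necrosis factor family, had 1.35 in sh JMJD3 and 2.20 in sh control (difference -0.85 ± 0.15, adjusted p = 0.0728). Also in this range of adjusted p were Cables1, Kcnf1, Cdh10 and Sec16b (differences 0.35, 0.59, 0.37 and 0.71). The same held for S1pr1, Pcdh7, Piga and Tmem179 (-0.54, -0.44, -0.45 and -0.67).

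The promoters of the genes that passed were searched for short elements that Smads bind, in a window from 250 bases before to 50 bases after each start (RefSeq, GRCm38.p6). The table held 12 of the 23 genes. The motif CAGAC, read on both strands, was present for 5 of these 12 (41.7%), namely Adra2a, Efnb2, Gper1, Nrarp and Zbed5, against 52.7% of 13597 genes tested that have a promoter in the table. The palindrome GTCTAGAC, which does not overlap it, was present in 0 of the 12, against 0.294% of all. A share near that of all genes is no result about these genes, and a match is a description of letters. The first sequence printed here is of a gene with several matches and a difference above 0 (Nrarp, 4 matches, chr2:25180508-25180807 (plus strand)). The next is of a gene with 1 match and a difference below 0 (Efnb2, chr8:8661193-8661492 (minus strand)). The last are of a pair without a match that kept passing under most settings (Gas1, chr13:60177486-60177785 (minus strand), and Chst8, chr7:34812662-34812961 (minus strand)). Each runs 5′ to 3′ on the strand of its gene, with matches in capitals.
Nrarp: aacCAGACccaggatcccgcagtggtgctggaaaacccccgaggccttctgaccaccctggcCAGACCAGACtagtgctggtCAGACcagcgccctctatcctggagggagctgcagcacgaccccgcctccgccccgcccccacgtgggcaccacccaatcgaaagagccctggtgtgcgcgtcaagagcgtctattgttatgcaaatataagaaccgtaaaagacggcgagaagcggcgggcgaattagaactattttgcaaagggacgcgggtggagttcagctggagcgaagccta
Efnb2: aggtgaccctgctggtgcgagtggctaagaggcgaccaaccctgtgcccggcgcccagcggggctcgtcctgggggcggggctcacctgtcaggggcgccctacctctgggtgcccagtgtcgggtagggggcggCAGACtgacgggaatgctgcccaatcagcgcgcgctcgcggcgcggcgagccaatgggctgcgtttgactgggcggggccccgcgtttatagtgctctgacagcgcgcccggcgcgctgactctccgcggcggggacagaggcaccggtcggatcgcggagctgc
Gas1: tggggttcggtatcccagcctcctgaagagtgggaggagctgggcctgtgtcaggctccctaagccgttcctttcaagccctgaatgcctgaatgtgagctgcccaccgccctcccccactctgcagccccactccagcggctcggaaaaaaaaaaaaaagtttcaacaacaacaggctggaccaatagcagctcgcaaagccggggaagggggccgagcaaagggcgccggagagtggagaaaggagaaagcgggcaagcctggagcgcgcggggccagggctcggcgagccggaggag
Chst8: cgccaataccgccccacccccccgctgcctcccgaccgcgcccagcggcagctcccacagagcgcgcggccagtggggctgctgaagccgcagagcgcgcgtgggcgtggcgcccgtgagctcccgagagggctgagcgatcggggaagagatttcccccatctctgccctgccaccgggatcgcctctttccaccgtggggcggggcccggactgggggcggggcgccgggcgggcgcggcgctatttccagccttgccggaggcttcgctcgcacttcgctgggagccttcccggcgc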

How the data were processed

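Each of 12 RNA samples, 3 for each combination of line and treatment, went onto its own 1-colour Agilent mouse array. Per the file headers, the deposited scanner files hold an intensity per spot on a linear scale, read with Feature Extraction 10.7.3.1, and probe positions are in build mm9. The signal used is the intensity after the software's own background correction, per the file headers. A second deposited table holds the authors' processed log2 values in 12 columns, of which the first has a median of 7.93. Each column matched its own array best, which gives its scale and direction, and its background correction is not given in the sources used here.

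Control spots (1377 an array) and outlier spots were left out of 43020 gene spots, and spots of a probe were averaged. The log2 signal was taken relative to the array's 75th percentile. Of 39429 probes, 29968 were well above background on all 3 arrays of a group and were kept. A gene was its kept probe with the highest mean, and 4857 genes had more than 1. Accessions named 26164 probes through RefSeq (GRCm38.p6, names only), and 13265 kept the file's name. Across arrays, 70.2% to 78.4% of probes were well above background, and the number of arrays limits the precision.

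One model with a mean for each group was fitted to all 12 arrays in R 4.3.3 using limma 3.58.1 (eBayes with a trend after lmFit and contrasts.fit; 8 residual and 3.11 prior degrees of freedom), and was tested on simulated data. The comparisons of one line or treatment share arrays with the difference and are no independent support. The members, lists and alternatives were chosen with earlier results of these data known. Named genes were Kdm6b, genes that passed (up to 20 a direction), up to 8 a direction with an adjusted p of 0.05 to 0.20, up to 4 of each list by size and 8 a direction by mean response; clone-type names were counted. Some genes that the rule names are counted and not reported here. Further pathway genes and Fam169b, outside this rule, were named after their values were seen. The alternatives were other background corrections, scalings, filters, probe rules, priors, weights, blocks and thresholds, and each array left out.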

Additional observations from a re-analysis of the deposited data

Results flagged for a closer look

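The TGFb response differed between the lines by the test of the difference itself (limma, adjusted p under 0.05 over all genes) for the 20 genes named here. On the log2 scale, sh JMJD3 minus sh control, the difference was above 0 for Rufy4 (1.04), Gas1 (0.94), Gper1 (0.85), Wnt5a (0.84), Insm1 (0.84), Palmd (0.62), Pmepa1 (0.61), Zbed5 (0.61), Nrarp (0.58), Ehd4 (0.57) and Camk2n1 (0.55). It was below 0 for Mgp (-2.34), Dclk3 (-1.45), Chst8 (-1.14), Diras2 (-0.88), Cdkl4 (-0.82), Ccn2 (-0.68), B4galt1 (-0.64), Adra2a (-0.63) and Efnb2 (-0.59). Groups held 3 arrays each, which is too few to look for single arrays that stand apart.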

How the results depend on the processing

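The direction of the difference was kept under each alternative for all 20 named genes that passed (0 reversals), with the call kept in 359 of the gene and setting combinations and lost in 180. Dclk3 and Chst8 passed in all 27 settings, Mgp in 25, Zbed5, Adra2a and Diras2 in 9 each, and Nrarp in 8. The count of genes that passed, 23 here, was 6 at an adjusted p under 0.01 and 43 at one under 0.10. It was 5 with a difference of at least 1 log2 and 109 when adjusted over responding genes. Median scaling gave 5, quantile normalization 19, normexp background correction 18 and the authors' values 15. The count was 48 with array weights, 43 with the slide as a fixed block and 91 with it as a random block. These counts need not hold the same genes: of the 23, 13 passed with normexp correction and 12 in the authors' values. Leaving out 1 array gave 7 to 27 genes: the lowest, 7, came without sh control vehicle replicate 3, and 8 came without sh JMJD3 TGFb replicate 2, without sh JMJD3 TGFb replicate 3 or without sh control TGFb replicate 3. It gave 10 to 15 without 6 others, namely sh JMJD3 vehicle replicates 1 (14), 2 (10) and 3 (12), sh control TGFb replicates 1 (13) and 2 (12), and sh control vehicle replicate 1 (15). Replicate numbers did not pair samples (0 of 14 pairs with the same number on different slides correlated above 0.1), and with the replicate number as a block 11 genes passed. Among genes with a large mean response the count that passed, 15 here, was 4 with median scaling and 25 with array weights. It was 43 with the random slide block, 8 with the replicate block and 5 to 13 without 1 array. The 302 with intervals within 1 log2 became 195 of 212 with normexp correction and 193 of 211 in the authors' values, where fewer genes reached the 2-fold response. The causes were not tested.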
